A study of Mus musculus with 8 samples.

Results

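Genes of glycolysis and of the response to low oxygen were followed in mouse bladder tissue after a surgical outlet obstruction. The set holds 34 genes chosen by symbol out of 38926 in the count files. Of these, 23 handle glucose, pyruvate or lactate, among them 14 glycolytic enzymes, and 11 belong to oxygen sensing and the hypoxia response, among them 6 targets of the hypoxia-inducible factors (HIF). Every member was measured, and all 34 passed the filter on low counts that left 16370 genes for testing. The NeMO group (4 libraries) comes from mice with a partial bladder outlet obstruction made by a method that spares the nerves, and the Sham group (4 libraries) from mice with a sham operation. The labels give neither strain, sex, age nor the time after surgery, and do not say whether a library is 1 animal, so p-values reflect only how these samples spread. RNA with polyA tails was sequenced from bladder tissue, so fewer cells of a type and less RNA per cell cannot be told apart in any level below.

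Glycolysis splits glucose to pyruvate in the cytosol and yields ATP without oxygen, and lactate dehydrogenase regenerates the NAD that the pathway needs. When oxygen is short, prolyl hydroxylases stop marking HIF alpha subunits for destruction, and HIF then binds short DNA elements and raises transcription of glucose transporters, most glycolytic enzymes, Pdk1 and genes such as Bnip3 and Ankrd37. HIF alpha is controlled mainly at the protein level, which RNA counts do not measure. In a bladder that empties against resistance, the stretched wall can receive less blood.

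The libraries held 29451800 to 36375313 counts in NeMO and 27212499 to 33459048 counts in Sham, and levels are given in CPM (counts scaled to library size with TMM factors). The libraries carry batch marks in their file names: batch 1 holds NeMO replicates 1 and 3 and Sham replicates 1 to 3, and batch 2 holds NeMO replicates 2 and 4 and Sham replicate 4. All values in batch 2 alone therefore rest on 1 Sham library, and a fit without Sham replicate 4 is in effect batch 1 alone. Markers of bladder were present: those of urothelium summed to 5280 to 7840 CPM in NeMO and 6530 to 8680 CPM in Sham, and smooth muscle markers to 24600 to 46300 CPM in NeMO and 29000 to 38300 CPM in Sham, with no marker of either list at 0. Among fits with 1 library left out, the number of genes past edgeR's adjusted p of 0.05 changed most without NeMO replicate 1. It was then 652, against 12 with all libraries. This does not single that library out: chi-square per degree of freedom against the other NeMO libraries was 54.2 to 112 for replicate 1 and 62.2 to 112 for replicate 3.

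None of the 34 members passed edgeR's quasi-likelihood test at an adjusted p of 0.05, with a smallest adjusted p of 0.12, where 0.0733% of all genes tested passed. Of the 34, 11 were higher and 23 lower in NeMO, with a median absolute log2 fold change of 0.113 against 0.164 over all genes tested. At an unadjusted p under 0.05 there were 3 members higher (Eno2, Hif1a, Ero1l) and 1 lower (Ldhb), which is 11.8% of the members against 18.5% of all genes. DESeq2's Wald test passed 2 members, Hif1a (log2 fold change 0.37, adjusted p = 0.0277) and Ldhb (−0.33, adjusted p = 0.032), where it passed 5.53% of all genes. Hif1a was thus 1 of 34 higher in NeMO by DESeq2, against 3.26% of all genes, and Ldhb 1 of 34 lower, against 2.27%. Among the 23 glycolysis members 6 were higher and 17 lower (median log2 fold change −0.06). Among the 11 hypoxia members 5 were higher and 6 lower, with a median of −0.0007, and over all genes tested the median was −0.0098 with 48.3% higher.

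**Figure D1:**
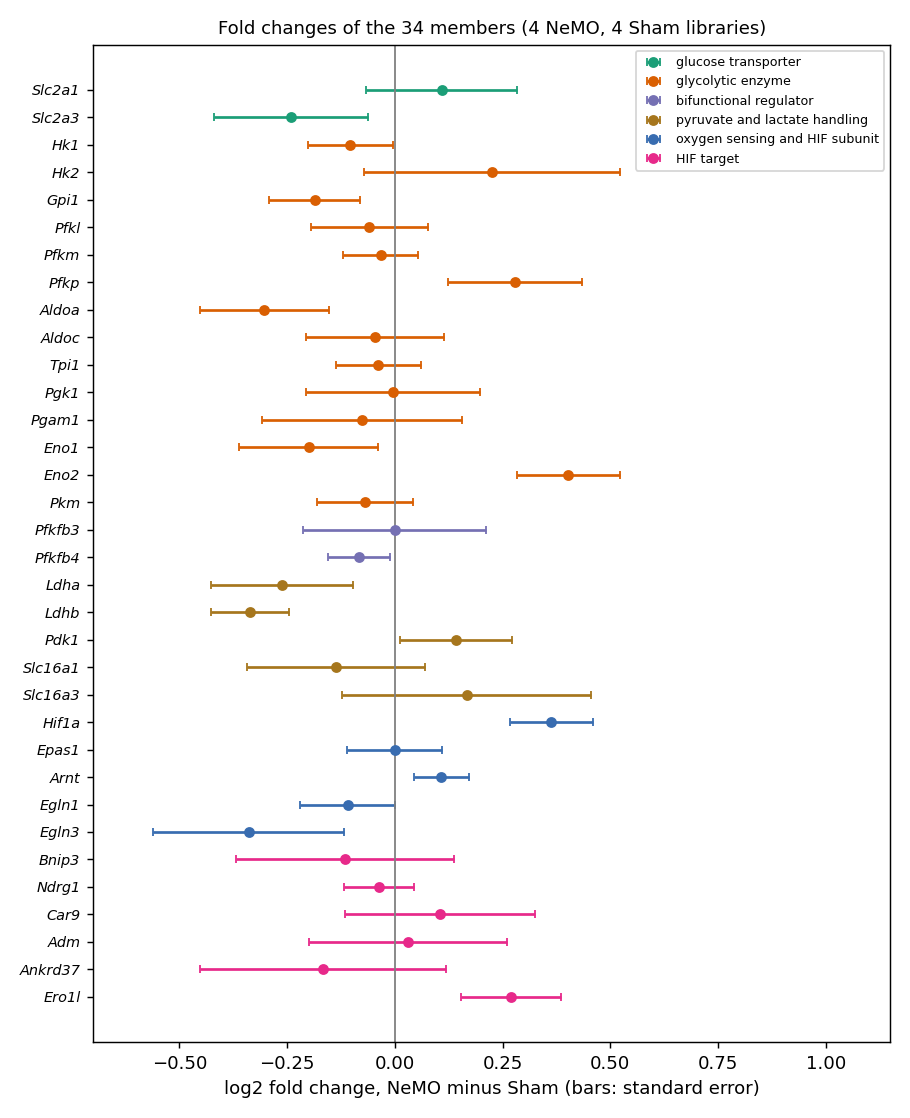
Fold changes of the 34 members from the edgeR fit with batch as a term, on the log2 scale as NeMO minus Sham, with bars for the standard error and colours for the role of the gene. The estimates lie between −0.34 (Egln3) and 0.40 (Eno2), and 24 of the 34 lie within 0.2 of 0.

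With NeMO replicate 1 left out, 652 of all genes passed edgeR's test, against 12 with all libraries. A further 3 members passed it only in that fit: Aldoa (log2 fold change −0.53, adjusted p = 0.0277), Ldha (−0.51, adjusted p = 0.0311) and Egln3 (−0.71, adjusted p = 0.0159). With Hif1a and Ldhb, these are the 5 members that passed a test under any setting. The 652 genes are counted in either direction, and the share of all genes that passed as lower in NeMO without NeMO replicate 1 is not given here. Whether Aldoa, Ldha and Egln3, all lower, make members pass more often than other genes was therefore not tested. The 250 bases before a start of each of these 5 genes are shown, from RefSeq on GRCm38.p6 and taken where no annotated exon lies in the window. Capitals mark the core letters of the hypoxia response element, ACGTG or GCGTG, or their reverse complement. The letters CACGTG, which also form an E-box, hold ACGTG on both strands and count as 2 matches.
Hif1a: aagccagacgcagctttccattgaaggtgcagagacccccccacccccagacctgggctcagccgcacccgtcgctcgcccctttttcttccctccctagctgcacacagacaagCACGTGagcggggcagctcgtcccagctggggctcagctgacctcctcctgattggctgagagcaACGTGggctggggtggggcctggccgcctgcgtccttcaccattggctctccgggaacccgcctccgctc
Egln3: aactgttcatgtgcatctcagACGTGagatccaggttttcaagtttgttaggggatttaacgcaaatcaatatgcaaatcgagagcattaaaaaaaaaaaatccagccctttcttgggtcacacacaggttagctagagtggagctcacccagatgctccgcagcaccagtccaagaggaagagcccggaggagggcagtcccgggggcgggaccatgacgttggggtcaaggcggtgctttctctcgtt
Ldha: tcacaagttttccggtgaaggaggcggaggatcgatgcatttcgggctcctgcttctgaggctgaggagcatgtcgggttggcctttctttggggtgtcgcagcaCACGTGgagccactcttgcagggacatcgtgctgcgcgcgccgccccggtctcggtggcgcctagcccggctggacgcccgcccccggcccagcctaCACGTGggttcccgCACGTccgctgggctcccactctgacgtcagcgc
Ldhb: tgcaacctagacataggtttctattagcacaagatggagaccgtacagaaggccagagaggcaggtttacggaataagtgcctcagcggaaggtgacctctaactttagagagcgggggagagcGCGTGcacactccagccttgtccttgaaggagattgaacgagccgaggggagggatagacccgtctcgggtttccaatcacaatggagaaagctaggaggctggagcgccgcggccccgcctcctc
Aldoa: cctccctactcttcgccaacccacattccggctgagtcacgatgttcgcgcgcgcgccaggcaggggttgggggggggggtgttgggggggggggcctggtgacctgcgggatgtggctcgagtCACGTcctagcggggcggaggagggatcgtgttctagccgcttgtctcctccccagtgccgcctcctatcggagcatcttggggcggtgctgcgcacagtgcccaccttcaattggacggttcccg

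The Hif1a window (chr12:73907617-73907866, plus strand) holds 3 matches, and that of Ldha (chr7:46845554-46845803, plus strand) holds 5, of which 4 come from 2 copies of CACGTG. The window of the other Ldha start, also without an annotated exon and not shown, holds 1 match, 59 bases before that start. Egln3 (chr12:54203875-54204124, minus strand) has its single match 229 bases before the start. Ldhb (chr6:142507958-142508207, minus strand) and Aldoa (chr7:126799255-126799504, minus strand) have 1 match each, both 126 bases before the start. Of the 34 members 31 had an entry (not Slc2a3, Epas1 and Ndrg1), with 44 starts in all. A match lay before 36 of these 44 starts (81.8%), against 38.6% of all 32851 starts in the table. Windows of nearby starts of the same gene overlap and can hold the same match. Counted by gene, 28 of the 31 members had a match at any start, against 41.5% of all genes with an entry. The members' windows also held more CG dinucleotides, with a median of 14 against 6 over all starts, and the part of base composition in the share of matches was not tested. Bnip3, also without its sequence here, had 5 matches and Ankrd37 and Slc16a1 had 4 each, while the Eno2 window held none. A match describes letters only, and genes whose windows held none had log2 fold changes of both signs (Eno2 0.40, Gpi1 −0.19).

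Levels along the pathway spanned a wide range once counts were divided by transcript length. Per kilobase of the longest transcript, Aldoa, which cleaves fructose bisphosphate, had 369 CPM per kb in NeMO and 437 CPM per kb in Sham. The pyruvate kinase gene Pkm had 312 CPM per kb in NeMO and 319 CPM per kb in Sham. Below these came Ldhb, Ldha and Tpi1 with 182, 121 and 113 CPM per kb in NeMO, against 215, 141 and 113 in Sham. Pgk1 and Pgam1, whose enzymes act between Tpi1 and Pkm in the same chain, had only 3.29 and 2.73 CPM per kb in NeMO and 3.23 and 3.01 CPM per kb in Sham. Much of their sequence is not theirs alone: of all 50-base runs in the longest Pgk1 transcript, 68% also occur in a transcript of another gene, and in Pgam1 41.5% do. Eno1 had the largest share, 72.2% of its runs, and 33.2 CPM per kb in NeMO and 36.9 CPM per kb in Sham. Pkm shared 34.4%, Ldhb 27%, Bnip3 21.9%, Ldha 16.6%, Aldoa 13.5% and Gpi1 10.2%, and the other members at most 7.51%. Whether multi-mapping reads were counted is not given in the sources used here, so the levels of these genes are uncertain. The part of shared sequence in the levels was not tested. The glycolytic enzyme Gapdh, listed here only for comparison, shared 27.2% of its runs, with 213 other genes. It had 3.22 ± 0.864 CPM in NeMO and 3.92 ± 0.595 CPM in Sham (SD, n = 4 each).

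**Figure D2:**
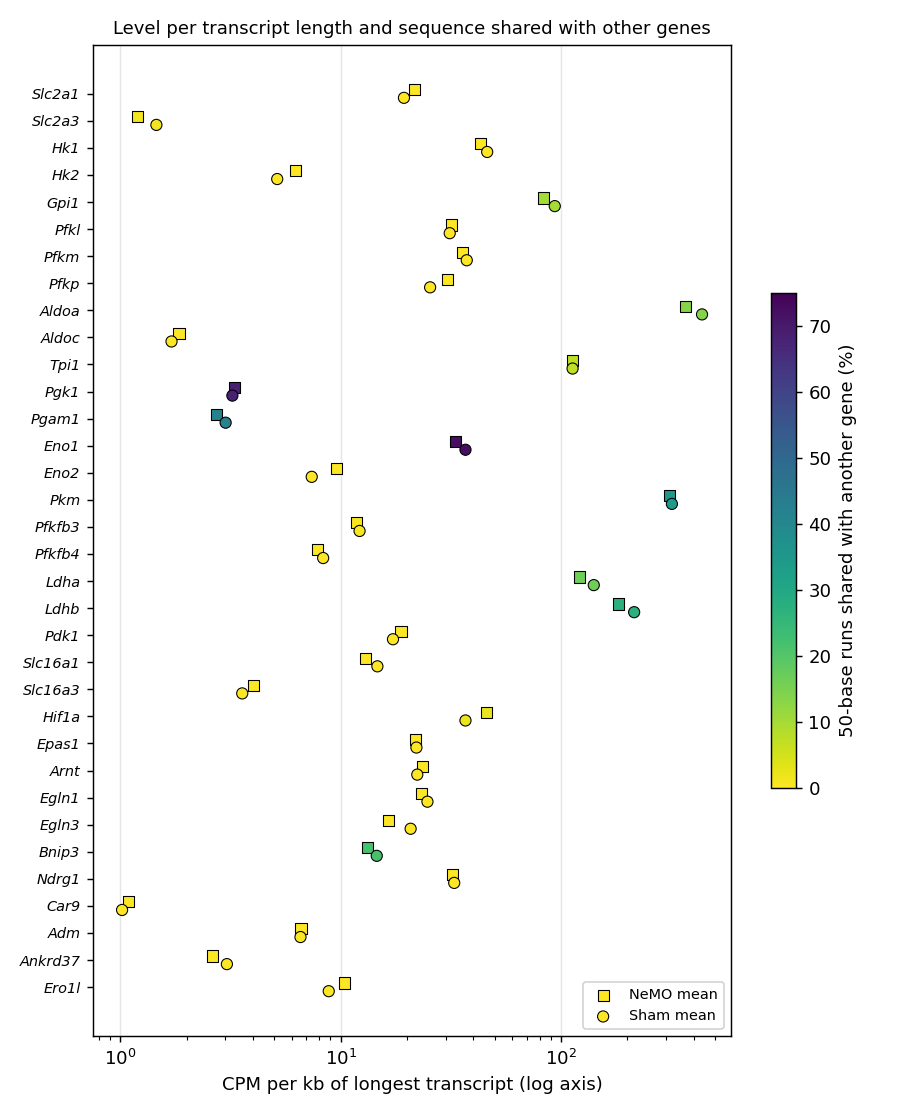
Mean level of each member in NeMO (squares) and Sham (circles), in CPM per kb of the longest transcript on a log axis, coloured by the share of 50-base runs that also occur in another gene. Pgk1 and Pgam1 lie near 3 CPM per kb, and Tpi1 and Pkm in the same chain lie above 100. Eno1, with the highest shared percentage, lies at 33.2 CPM per kb in NeMO and 36.9 CPM per kb in Sham.

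Glucose enters cells through the transporters Slc2a1 (GLUT1) and Slc2a3 (GLUT3). Slc2a1 had 78.5, 58.4, 62.7 and 81.6 CPM in NeMO replicates 1 to 4, against 51.2, 67.3, 50.1 and 84.9 CPM in Sham replicates 1 to 4 (log2 fold change 0.11 ± 0.17 SE, adjusted p by edgeR = 0.784). The groups overlapped, and the highest value of all was in Sham replicate 4. Slc2a3 was scarce, with 5.73 to 9.79 CPM in NeMO and 8.63 to 9.58 CPM in Sham (−0.24, SE 0.18). Hexokinases trap glucose as its 6-phosphate. The housekeeping form Hk1 had 185 ± 19.9 CPM in NeMO and 198 ± 17 CPM in Sham (SD, n = 4 each). The inducible form Hk2 had 41.7, 22.4, 26.2 and 47.7 CPM in NeMO, against 27.4, 23.9, 19.5 and 43.0 CPM in Sham (log2 fold change 0.23 ± 0.30 SE, adjusted p by edgeR = 0.728). Hk2 thus varied more within each group than between them, with means of 34.5 ± 12.1 CPM in NeMO and 28.4 ± 10.2 CPM in Sham (SD, n = 4 each). High values lay in 2 NeMO libraries (replicates 1 and 4) and in Sham replicate 4.

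Phosphofructokinase, the committed step, is built from the subunits Pfkl, Pfkm and Pfkp. The platelet-type Pfkp was the most abundant in counts, with 358, 231, 223 and 254 CPM in NeMO, against 204, 225, 209 and 247 CPM in Sham (log2 fold change 0.28 ± 0.16 SE, adjusted p by edgeR = 0.372). Only NeMO replicate 1 stood clear of the others, and without it the log2 fold change was 0.03. Per kilobase the 3 subunits were close, at 31.9, 35.8 and 30.7 CPM per kb in NeMO and 31.3, 37.4 and 25.5 CPM per kb in Sham for Pfkl, Pfkm and Pfkp. Pfkl had 119 ± 23.6 CPM in NeMO and 117 ± 25.3 CPM in Sham, and Pfkm 103 ± 7.3 CPM in NeMO and 108 ± 10.6 CPM in Sham (SD, n = 4 each). Pfkfb3 and Pfkfb4 make and remove fructose 2,6-bisphosphate, which activates phosphofructokinase. Pfkfb3 had 87.0 CPM in NeMO replicate 1 and 45.5 to 48.6 CPM in the other NeMO libraries, against 47.8 to 68.3 CPM in Sham (log2 fold change −0.0004, SE 0.21). Without NeMO replicate 1 its log2 fold change was −0.32, and without Sham replicate 4 it was 0.23. Pfkfb4 hardly varied: it had 26.9, 27.7, 27.4 and 27.8 CPM in NeMO, against 29.7, 29.0, 29.3 and 28.4 CPM in Sham. These groups did not overlap, which held for 8.19% of all genes tested in either direction and 3.81% in this one, but the difference was small (log2 fold change −0.08 ± 0.07 SE, adjusted p by edgeR = 0.573).

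In the lower part of the pathway, Aldoa had 668, 603, 413 and 602 CPM in NeMO, against 567, 645, 654 and 841 CPM in Sham (log2 fold change −0.30 ± 0.15 SE, adjusted p by edgeR = 0.313). NeMO replicate 3 was the lowest library and Sham replicate 4 the highest, and the groups overlapped. The isomerase Gpi1 had 267 ± 35.5 CPM in NeMO and 300 ± 19 CPM in Sham (−0.19, SE 0.11). Tpi1 averaged 182 CPM in both groups (−0.04, SE 0.10), Pkm 760 ± 68.5 CPM in NeMO and 775 ± 110 CPM in Sham (−0.07, SE 0.11), and Eno1 67.2 ± 11.6 CPM in NeMO and 74.8 ± 17.9 CPM in Sham (−0.20, SE 0.16), SD and n = 4 in each. Pgk1 and Pgam1 stood at −0.0041 (SE 0.20) and −0.08 (SE 0.23), and the brain-type aldolase Aldoc, at 5.16 CPM in NeMO and 4.77 CPM in Sham, at −0.05 (SE 0.16). Means are not adjusted for batch, while the fold changes are, and without the batch term Aldoc stood at 0.11.

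Eno2, the enolase known from neurons, had the largest fold change of the 34 members. It measured 32.7, 22.5, 25.1 and 26.7 CPM in NeMO, against 18.7, 21.3, 22.3 and 20.4 CPM in Sham. Every NeMO library lay above every Sham library, although NeMO replicate 2 exceeded the highest Sham library by little. The log2 fold change was 0.40 (SE 0.12, 1.32-fold) and missed the threshold in edgeR (adjusted p = 0.143) and in DESeq2 (adjusted p = 0.0596). Of all genes tested, 4.39% lay higher in NeMO without overlap, and 1 of the 34 members did. The difference had the same sign in batch 1 (0.48) and batch 2 (0.28). Neuronal markers went the other way: 0 of 7 were higher in NeMO, and their summed level was 197 to 369 CPM in NeMO and 339 to 426 CPM in Sham. Most of that sum was Uchl1, with a mean of 264 CPM in NeMO and 334 CPM in Sham (−0.46). The next most abundant, Stmn2, had means of 14.5 CPM in NeMO and 19 CPM in Sham. The part of neurons in the Eno2 level was not tested.

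Lactate dehydrogenase is a tetramer of Ldha and Ldhb chains. Ldhb, the heart-type chain, had 207, 291, 196 and 253 CPM in NeMO, against 257, 287, 274 and 302 CPM in Sham. NeMO replicates 1, 3 and 4 lay below all Sham libraries, replicate 4 by little, while replicate 2 lay within their range. Its log2 fold change was −0.34 (SE 0.09, edgeR adjusted p = 0.125), −0.43 in batch 1 and −0.15 in batch 2, and −0.20 once length and GC content were corrected for (adjusted p by edgeR = 0.357). Ldha, the muscle-type chain and a HIF target, had 272, 206, 168 and 229 CPM in NeMO, against 207, 247, 248 and 323 CPM in Sham (log2 fold change −0.26 ± 0.17 SE, adjusted p by edgeR = 0.433). Among NeMO libraries replicate 1 was the highest, and the groups overlapped over most of their range.

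Pdk1, the kinase that shuts pyruvate dehydrogenase, had 97.3 ± 18.6 CPM in NeMO and 89.8 ± 5.53 CPM in Sham (SD, n = 4 each, log2 fold change 0.14 ± 0.13 SE, adjusted p by edgeR = 0.593). The lactate carriers Slc16a1 (MCT1) and Slc16a3 (MCT4) stood at −0.14 (SE 0.21) and 0.17 (SE 0.29). Slc16a3, which exports lactate from glycolytic cells, had 26.9 and 19.2 CPM in NeMO replicates 1 and 2 and 11.5 and 12.2 CPM in replicates 3 and 4, against 12.9 to 19.4 CPM in Sham. The NeMO libraries thus lay on both sides of the Sham range.

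**Figure D3:**
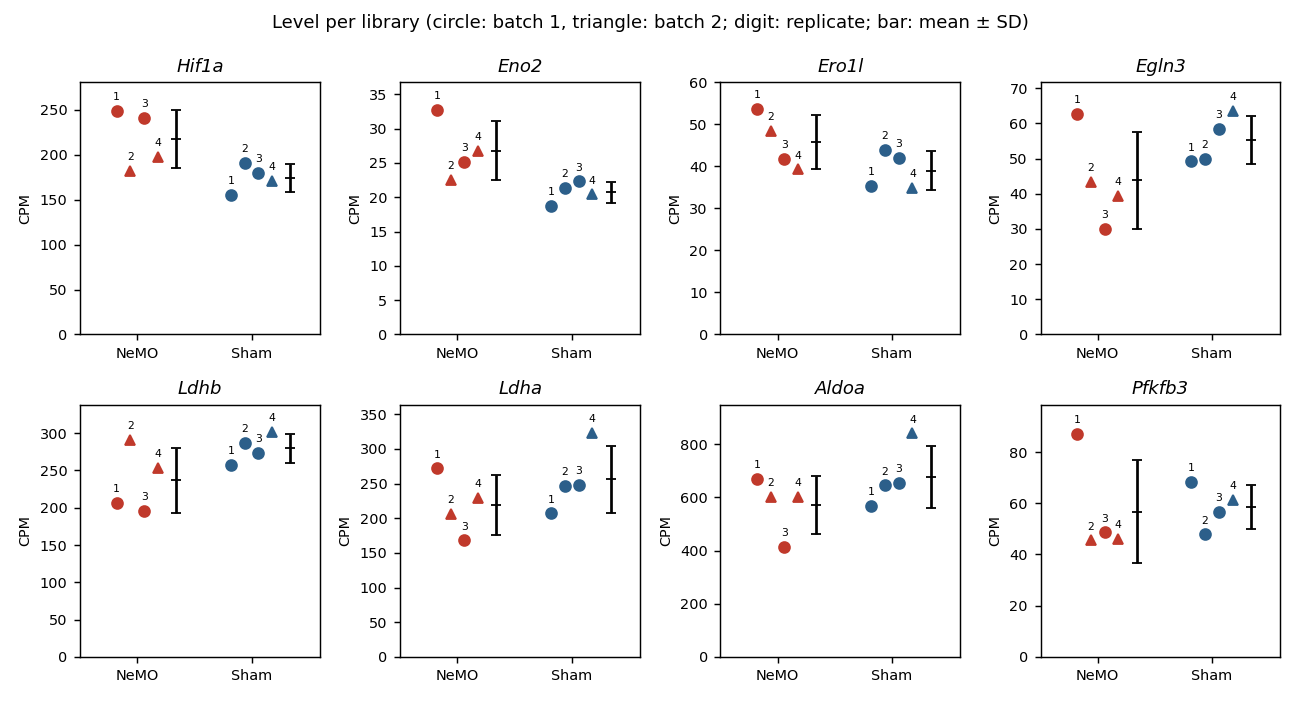
Level of 8 members in CPM in each library, with NeMO left of Sham in every panel, circles for batch 1, triangles for batch 2, digits for the replicate and a bar for the mean ± SD of 4 libraries. Of the 8, Eno2 alone has no overlap between the groups, with 22.5 CPM in the lowest NeMO library and 22.3 CPM in the highest Sham library, while NeMO replicate 1 is the highest NeMO library of every gene shown except Ldhb.

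Among the oxygen sensors, Hif1a, which encodes the HIF-1 alpha subunit, had the smallest p of the 34 members. It measured 249, 182, 241 and 198 CPM in NeMO, against 155, 191, 180 and 171 CPM in Sham. In 3 of 4 NeMO libraries the level exceeded the highest Sham library, and NeMO replicate 2 lay within the Sham range. The log2 fold change was 0.36 (SE 0.10, 1.29-fold), with an adjusted p of 0.12 in edgeR and 0.0277 in DESeq2. It was 0.48 in batch 1 and 0.16 in batch 2, and 0.30 to 0.48 when 1 library was left out. With length and GC content corrected for, it was 0.26 (adjusted p by edgeR = 0.35).

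The other HIF subunits had smaller fold changes. Epas1, which encodes HIF-2 alpha and is best known from endothelium, had 121 ± 17.4 CPM in NeMO and 122 ± 8.9 CPM in Sham (log2 fold change −0.0007, SE 0.11), and their common partner Arnt had 102 ± 5.9 CPM in NeMO and 96.6 ± 5.87 CPM in Sham (0.11 ± 0.06 SE, adjusted p by edgeR = 0.4), SD and n = 4 in each. Endothelial markers summed to 260 to 442 CPM in NeMO and 288 to 351 CPM in Sham. Of the prolyl hydroxylases, Egln1, the main one that marks HIF alpha, had 84.1 ± 10 CPM in NeMO and 89.1 ± 11.9 CPM in Sham (−0.11, SE 0.11). Egln3, a prolyl hydroxylase that HIF itself induces, had 62.7, 43.3, 29.9 and 39.5 CPM in NeMO, against 49.2, 50, 58.5 and 63.5 CPM in Sham. NeMO replicates 2, 3 and 4 lay below all Sham libraries, and NeMO replicate 1 lay near the top of the Sham range. The log2 fold change was −0.34 (SE 0.22, edgeR adjusted p = 0.452), −0.71 without NeMO replicate 1 and −0.15 without NeMO replicate 3.

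The 6 other HIF targets showed no common direction, with 3 higher and 3 lower in NeMO and a median log2 fold change of −0.0035. Ero1l (named Ero1a in RefSeq), an oxidase that forms disulphide bonds in the endoplasmic reticulum, had 53.6, 48.4, 41.8 and 39.3 CPM in NeMO, against 35.3, 43.9, 42.0 and 34.9 CPM in Sham (0.27 ± 0.12 SE, adjusted p by edgeR = 0.253). Its groups overlapped, with NeMO replicates 1 and 2 above all Sham libraries. Bnip3, a mitophagy receptor, had 33.4, 28.1, 16.3 and 15.6 CPM in NeMO, against 25.9, 25.3, 25.8 and 25.8 CPM in Sham (−0.12 ± 0.25 SE, adjusted p by edgeR = 0.847). Its Sham libraries were nearly equal, while 2 NeMO libraries lay above and 2 below all of them.

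Ndrg1, a stress-induced gene, was even across libraries, with 130 ± 7.23 CPM in NeMO and 133 ± 10.5 CPM in Sham (−0.04, SE 0.08). The remaining targets were scarce. Car9, the carbonic anhydrase used as a marker of hypoxic tumour cells, had 1.95, 2.05, 2.51 and 2.32 CPM in NeMO, against 2.24, 2.01, 2.07 and 1.98 CPM in Sham (0.10, SE 0.22). These levels rest on 52 to 86 reads per library. Adm, the precursor of the vasodilator adrenomedullin, had 5.99 to 11.6 CPM in NeMO and 7.56 to 10.8 CPM in Sham (0.03, SE 0.23), and Ankrd37 1.74 to 3.55 CPM in NeMO and 1.95 to 3.67 CPM in Sham (−0.17, SE 0.29). None of these groups separated.

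Single libraries stood out across many members. NeMO replicate 1 was the highest NeMO library for 21 of the 34 members (15 glycolysis, 6 hypoxia), where it was the highest for 26.4% of all genes tested. NeMO replicate 3 was the lowest for 15 members (12 glycolysis, 3 hypoxia), against 26.1% of all genes. In Sham, replicate 4 was the highest library for 18 members, 15 of them glycolysis genes, against 31.2% of all genes, and replicate 1 was the lowest for 16, against 24.5%. The mean log2 level of the 23 glycolysis members was 6.26 and 6.24 in NeMO replicate 1 and Sham replicate 4, and 5.84 to 6.05 in the other libraries. NeMO libraries also spread more: the SD was larger in NeMO than in Sham for 16 of 23 glycolysis members and 8 of 11 hypoxia members, against 53.7% of all genes tested. These SDs were not adjusted for batch, over which NeMO and Sham are split unequally, and the members are not independent of each other. Smooth muscle marker sums were highest in NeMO replicate 1 (46300 CPM) and lowest in NeMO replicate 3 (24600 CPM), and adipocyte marker sums highest in Sham replicate 4 (2640 CPM) and lowest in NeMO replicate 3 (343 CPM). The part of cell mixture in the members' levels was not tested.

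**Figure D4:**
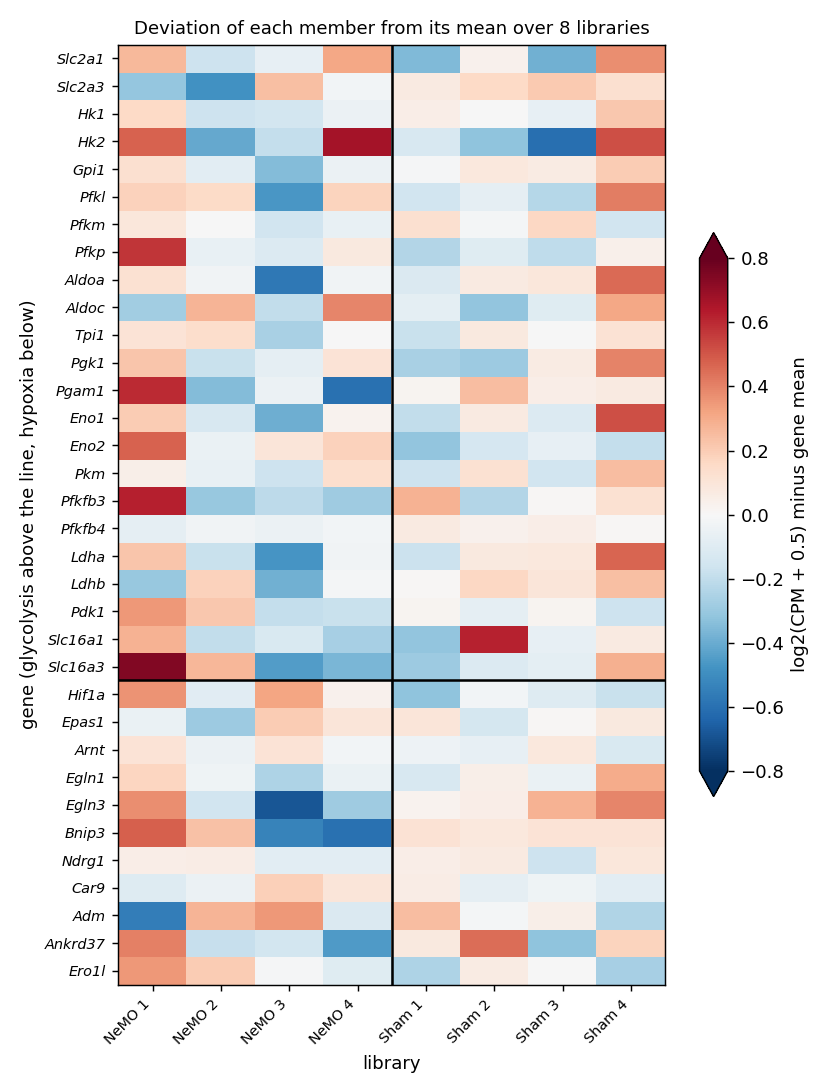
Deviation of each member in each library from its mean over the 8 libraries, on the log2(CPM + 0.5) scale, with NeMO libraries left of the vertical line and glycolysis members above the horizontal line. Among glycolysis members red prevails in the columns of NeMO 1 and Sham 4 and blue in that of NeMO 3, where 12 of them have their lowest NeMO value. Among hypoxia members NeMO 3 is the highest NeMO library for 4 and the lowest for 3, and Sham 4 the highest Sham library for 3 and the lowest for 4.

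Comparing within batches gave opposite signs for many members. In batch 1, 13 of 23 glycolysis members were higher in NeMO (median log2 fold change 0.01), and in batch 2 only 4 of 23 (median −0.27). The 2 signs were equal for 10 of the 23 glycolysis members (43.5%) and 7 of the 11 hypoxia members (63.6%), against 65.5% of all genes tested. Higher in both batches were 6 members, which include Hif1a, Eno2 and Ero1l, and 11 were lower in both, among them Ldhb, Ldha, Aldoa and Egln3. Hk2 (0.52 in batch 1, −0.28 in batch 2), Slc16a3 (0.43 and −0.30), Slc2a1 (0.33 and −0.27) and Pfkfb3 (0.23 and −0.41) changed sign. Since batch 2 has a single Sham library, a difference between the batches and a difference of Sham replicate 4 cannot be told apart.

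**Figure D5:**
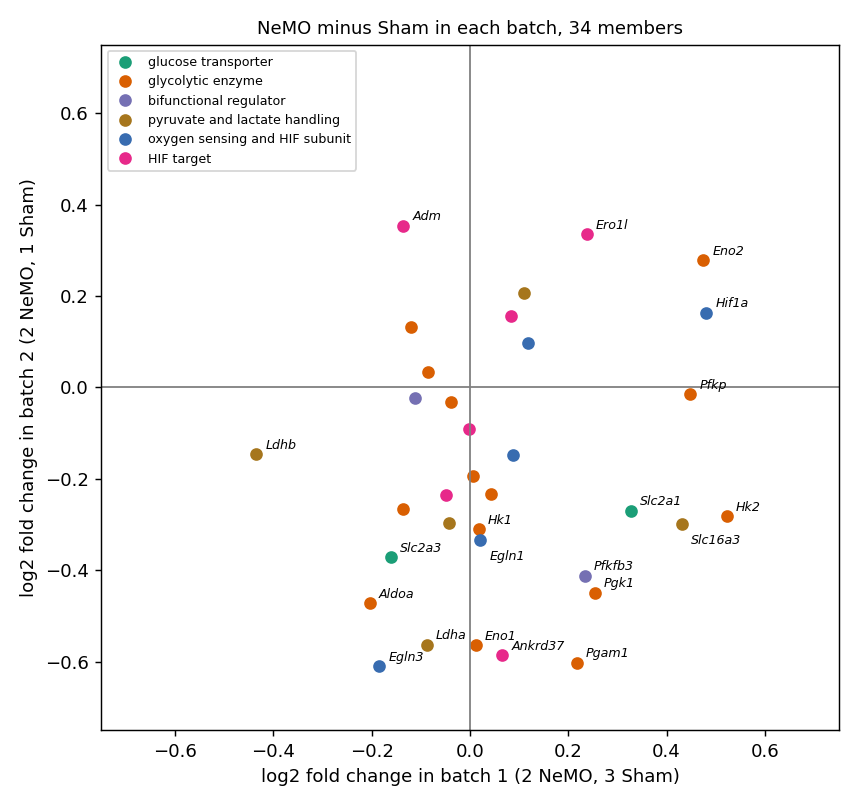
Log2 fold change of each member within batch 1 (x axis, 2 NeMO and 3 Sham libraries) and within batch 2 (y axis, 2 NeMO and 1 Sham library), coloured by role. In the lower right lie 14 members, higher in NeMO in batch 1 and lower in batch 2, while Hif1a, Eno2 and Ero1l lie in the upper right.

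The balance between forms that serve the same step was compared as the log2 ratio of their CPM in each library, for 11 pairs. Eno2 relative to Eno1 was −1.30, −1.50, −1.08 and −1.41 in NeMO, against −1.70, −1.78, −1.53 and −2.29 in Sham. All NeMO libraries lay above all Sham libraries, with a difference of 0.50 (two-sided exact permutation p = 0.0286, which no split of 4 against 4 can go below, adjusted 0.314 over the 11 pairs). The difference was 0.48 in batch 1 and 0.84 in batch 2. Since 72.2% of the 50-base runs of Eno1 also occur in another gene, its level and this ratio are uncertain. Epas1 relative to Hif1a was lower in NeMO by a difference of −0.33 (exact permutation p = 0.0857, adjusted 0.377), with −0.40 in batch 1 and −0.32 in batch 2. Egln3 relative to Egln1 differed by −0.30 (exact permutation p = 0.114, adjusted 0.377) and by −0.28 in each batch. Ldhb relative to Ldha averaged 0.12 ± 0.37 in NeMO and 0.15 ± 0.17 in Sham (SD, n = 4 each), a difference of −0.03 whose sign differed between batches (−0.31 and 0.42). None of the 11 pairs passed after adjustment.

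Of the wider glycolysis and pyruvate pathway, 36 further genes were listed, of which 29 could be tested. In NeMO 2 were higher and 27 lower, and the median log2 fold change was −0.23 against −0.0098 over all genes tested. By edgeR 0 of the 29 reached an adjusted p under 0.05. Without adjustment, 1 higher and 11 lower genes reached p under 0.05, as did 9.38% of all genes higher and 9.14% lower. DESeq2 passed 5, all lower, where it passed 2.27% of all genes lower: Mpc2, Pdhb, Eno3, Pfkfb1 and Slc2a5. Mpc2, a subunit of the carrier that takes pyruvate into mitochondria, had 44.8, 49.0, 38.8 and 54.9 CPM in NeMO, against 46.6, 63.3, 56.2 and 85.5 CPM in Sham (−0.52, SE 0.12, adjusted p = 0.0907 in edgeR and 0.00848 in DESeq2). Pdhb, a subunit of pyruvate dehydrogenase, had 60.6 ± 8.36 CPM in NeMO and 76.4 ± 22.5 CPM in Sham (−0.43 ± 0.12 SE, adjusted p by edgeR = 0.131).

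Eno3, the muscle enolase, was lower in every NeMO library than in every Sham library, as were 3.81% of all genes tested. It had 49.9, 44.2, 19.6 and 26.4 CPM in NeMO, against 60.1, 66.6, 89.0 and 95.9 CPM in Sham (log2 fold change −1.19, SE 0.33, adjusted p = 0.144 in edgeR and 0.0391 in DESeq2). The enolase genes thus had fold changes of both signs, with Eno2 at 0.40, Eno1 at −0.20 and Eno3 at −1.19 on the log2 scale. Skeletal muscle markers, 1 of 6 tested being higher in NeMO, summed to 728 to 1270 CPM in NeMO and 795 to 1070 CPM in Sham. Most of that sum was Acta1, with a mean of 908 CPM in NeMO and 735 CPM in Sham. The creatine kinase gene Ckm had 107 CPM in NeMO and 172 CPM in Sham (−0.70), and Tnnt3, Actn3 and Tnni2 stood at −0.70, −0.51 and −0.30. Pfkfb1, the liver and muscle form of the bifunctional enzyme, had 3.34 ± 1.09 CPM in NeMO and 4.86 ± 0.652 CPM in Sham (−0.72, SE 0.22). Slc2a5, a fructose transporter named after its values were seen, had 0.146 to 3.57 CPM in NeMO and 0.353 to 9 CPM in Sham (−2.28, SE 0.76), with the highest value of each group in replicate 4. Adipocyte markers were also low, with 0 of 7 higher in NeMO and sums of 343 to 1160 CPM in NeMO and 913 to 2640 CPM in Sham. Urothelial markers were lower too, 9 of 10 in NeMO, with a median log2 fold change of −0.42. No marker of these lists passed edgeR with all libraries. DESeq2 passed the adipocyte markers Fabp4 (adjusted p = 0.000245) and Cfd (adjusted p = 0.0318) and the urothelial markers Upk1a, Upk2, Upk3a, Upk3b, Krt20 and Psca. With 1 library left out, the smallest adjusted p by edgeR was 0.0193 for Fabp4, 0.0305 for Adipoq and 0.0259 for Ckm. The part of these markers in the list was not tested.

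Of 38 further genes of the hypoxia response 37 could be tested, and 22 were higher and 15 lower in NeMO, with a median log2 fold change of 0.05. By edgeR 0 of the 37 reached an adjusted p under 0.05, and without adjustment 5 higher and 2 lower genes reached p under 0.05, against 9.38% and 9.14% of all genes. Pfkfb2, a further bifunctional enzyme, stands in both wider lists and is counted in each among the higher genes (0.26, unadjusted p = 0.0403 by edgeR). DESeq2 passed 2, both lower, where it passed 2.27% of all genes lower: the glycogen branching enzyme gene Gbe1 and the lipid droplet gene Plin2. Gbe1 had 48.3, 47.3, 37.3 and 45.4 CPM in NeMO, against 49.9, 56.3, 54.6 and 74.7 CPM in Sham, without overlap as for those 3.81% of all genes (−0.46, SE 0.11, adjusted p = 0.103 in edgeR and 0.0192 in DESeq2). Plin2, which adipocytes also express, had 145 ± 22.9 CPM in NeMO and 174 ± 47.8 CPM in Sham (−0.36, SE 0.10). Vegfa, the angiogenic growth factor and a classical HIF target, had 121, 103, 95.5 and 103 CPM in NeMO, against 84.3, 96.1, 87.4 and 84.9 CPM in Sham (0.28 ± 0.09 SE, adjusted p by edgeR = 0.159). Its lowest NeMO library lay just below its highest Sham library, and the difference was 0.28 in both batches. Loxl2, a matrix crosslinking enzyme, had 18.9, 13.9, 46.1 and 35.8 CPM in NeMO, against 15.3, 12.5, 9.76 and 13.1 CPM in Sham (1.21 ± 0.39 SE, adjusted p by edgeR = 0.185). It was high in NeMO replicates 3 and 4 and within or near the Sham range in the other NeMO libraries. Of its 50-base runs 45.8% occur in other genes.

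Across all genes tested, longer transcripts had higher log2 fold changes (Spearman rho 0.324 across genes, which are not independent replicates). The median longest transcript was 3195 nucleotides for glycolysis members, 3594 for hypoxia members and 3207 for all genes tested. With length and GC content corrected for together, 12 of 23 glycolysis members were higher in NeMO, against 6 of 23 before, and their median was 0.0018. The 27 lower of 29 in the wider glycolysis list became 24 lower of 29, with a median of −0.24.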

How the data were processed

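Bladder polyA RNA from 4 NeMO and 4 Sham samples was sequenced as single-end reads from a directional kit, per the labels' protocols. The deposited files hold raw read counts per gene symbol. Per the submitters' processing notes, Trimmomatic, STAR, featureCounts, DESeq2 and the mm10 build were used, without roles or versions. No source used here gives the annotation, the strand setting or the handling of multi-mapping reads, so overlapping antisense genes cannot be told apart.

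Groups and replicates come from titles, batches from file names. Tests ran in R 4.3.3: edgeR 4.0.16 (filterByExpr with a minimum count of 10 and minimum total of 15, TMM, robust quasi-likelihood F-test with batch and group, two-sided, Benjamini-Hochberg over 16370 genes, threshold 0.05), with DESeq2 1.42.0 as an alternative. CPM are counts scaled to TMM library sizes. Log2 fold changes are NeMO minus Sham. The scripts were tested on simulated data. All replicate pairs differed by more than sampling noise (chi-square per degree of freedom 20.6 to 112).

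Isozyme ratios used log2(CPM + 0.1) and two-sided exact permutation tests. Lengths, GC content and shared 50-base runs come from GENCODE transcripts on GRCm38 (35656 of 38926 symbols matched directly, 1760 through a synonym, and 98.9% of genes tested had a length), promoters from RefSeq on GRCm38.p6, the assembly that mm10 names. The members and all lists were chosen with earlier results of these data known. All 34 members are named. Of the wider lists, the 4 genes with the smallest p in edgeR and, after their values were seen, those that DESeq2 passed are named. Precision is lowest for scarce genes such as Car9, with 52 to 86 reads per library.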

Additional observations from a re-analysis of the deposited data

Results flagged for a closer look

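Among the 34 members, 68 groups of 4 libraries were examined for a single library far from the other 3, and 2 were found, where chance alone flags about 1 in 20 groups. Pfkl, the liver-type phosphofructokinase subunit, had 83.6 CPM in NeMO replicate 3 and 129 to 132 CPM in the other NeMO libraries. Pfkfb3, the bifunctional regulator of phosphofructokinase, had 87 CPM in NeMO replicate 1 and 45.5 to 48.6 CPM in the other NeMO libraries. Smooth muscle marker sums were 46300, 30600, 24600 and 40300 CPM in NeMO replicates 1 to 4, and their part in these values was not tested.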

How the results depend on the processing

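Of 544 fold changes of members over 16 alternatives, 465 kept both their direction and their side of the threshold, 5 passed it only under the alternative, and 74, from 20 members, changed sign (Pfkp at 0.28 and Hk2 at 0.23 are the largest of them). The cause was not tested. The number of genes past the threshold was 12 in edgeR, 866 with DESeq2, 172 without the low-count filter, 7 without the batch term, 0 with the replicate block, 0 in batch 1 alone, 7 in batch 2 alone and 0 to 652 with 1 library left out (652, 50, 7 and 0 without NeMO replicates 1 to 4, and 3, 4, 11 and 0 without Sham replicates 1 to 4). DESeq2 passed 1 glycolysis member, 1 hypoxia member, 5 other glycolysis genes and 2 other hypoxia genes. Without the low-count filter 1 other glycolysis gene passed (Mpc2, edgeR adjusted p = 0.0421). With 1 library left out, 0 to 2, 0 to 1, 0 to 3 and 0 to 2 genes of these lists passed, all of them without NeMO replicate 1. In batch 2 alone the medians were −0.27 for glycolysis members and −0.0912 for hypoxia members.

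Member fold changes (log2) that turned round were, with DESeq2, Pgk1 0.0035, Pfkfb3 0.0062 and Epas1 0.0067; with DESeq2 size factors in edgeR, 0.0009, 0.0047 and 0.0043 for the same genes; and without the filter, 0.0017, 0.0041 and 0.0063. Without the batch term they were Pfkl 0.027, Aldoc 0.11 and Pgk1 0.026. With the length and GC correction they were Pfkm 0.028, Aldoc 0.0018, Tpi1 0.086, Pgk1 0.077, Pgam1 0.036 and Pkm 0.021. In batch 1 alone they were Hk1 0.018, Pfkl 0.043, Pgk1 0.25, Pgam1 0.22, Eno1 0.012, Pkm 0.0053, Pfkfb3 0.23, Epas1 0.087, Egln1 0.021, Adm −0.14 and Ankrd37 0.066, and the Pfkfb4 to Pfkfb3 ratio difference was −0.30. In batch 2 alone they were Slc2a1 −0.27, Hk2 −0.28, Pfkm 0.13, Pfkp −0.015, Aldoc 0.034 and Slc16a3 −0.30, and ratio differences were −0.073 for Hk2 to Hk1, 0.37 for Pfkm to Pfkl, 0.42 for Ldhb to Ldha and −0.036 for Slc16a3 to Slc16a1.

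With 1 library left out the ranges were −0.04 to 0.33 for Slc2a1, −0.22 to 0.017 for Hk1, −0.052 to 0.52 for Hk2, −0.28 to 0.066 for Pfkl, −0.12 to 0.058 for Pfkm, −0.13 to 0.053 for Tpi1, −0.16 to 0.25 for Pgk1, −0.37 to 0.22 for Pgam1, −0.43 to 0.011 for Eno1, −0.14 to 0.0047 for Pkm, −0.32 to 0.23 for Pfkfb3, −0.27 to 0.042 for Slc16a1, −0.30 to 0.43 for Slc16a3, −0.098 to 0.087 for Epas1, −0.26 to 0.020 for Egln1, −0.45 to 0.093 for Bnip3, −0.20 to 0.31 for Adm and −0.43 to 0.065 for Ankrd37. Ratio differences ranged from −0.15 to 0.14 for Ldhb to Ldha, −0.086 to 0.24 for Pfkfb4 to Pfkfb3 and −0.29 to 0.032 for Pfkm to Pfkl.

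With the replicate block the members Pfkl, Aldoc, Pgk1 and Adm stood at 0.025, 0.10, 0.045 and −0.020, and no member passed. Whether the numbers pair the samples is not known. Deviations of same-numbered libraries correlated at −0.0203, 0.101, 0.0502 and 0.403, and 4 of 8 libraries correlated best with their own number. Same-numbered libraries also share a batch, except for number 2, so these values cannot settle it. All pairs of forms passed the filter, so the ratios without it were unchanged. Depth limits Car9, Ankrd37, Aldoc, Pgk1, Pgam1, Slc2a3 and Adm, which lie under 10 CPM.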
